A study of Mus musculus with 7 samples.

Results

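The genes described are 10 markers and effectors of osteoclast differentiation and fusion, found by symbol among the 55417 gene symbols of the count table, and all 10 were present. They are Tnfrsf11a, Oscar, Nfatc1, Dcstamp, Ocstamp, Tm4sf19, Acp5, Ctsk, Atp6v0d2 and Itgb3. RNA was measured in RAW264.7, a mouse macrophage-like line, as 7 libraries in 3 groups. Cells carried the Dpep2 short hairpin shDpep2.968 in 2 libraries, the Dpep2 short hairpin shDpep2.759 in another 2, and shNT, a control hairpin, in 3. Every group carried a hairpin, and the labels name no other agent, so no added osteoclast-inducing ligand is on record for any of them. Dpep2 encodes a membrane-bound dipeptidase. The genes were chosen by their roles in osteoclasts with earlier CPM values and hairpin-to-shNT differences of these same libraries already known. How far each value weighed is not recorded, and no threshold was used. Their levels and differences from shNT are therefore a description. No p-value is given for them, and how many passed the whole-table threshold, or changed side under another setting, is stated without support being drawn from it. Of the 10 genes, 9 passed the low-count filter; Oscar did not.

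Osteoclasts are the multinucleate cells that resorb bone. They form when precursors of the macrophage lineage receive macrophage colony-stimulating factor and RANKL, the ligand of the receptor RANK. RANK signals through TRAF adaptors, NF-kB and AP-1 to the transcription factor NFATc1, which switches on genes for cell fusion and for acid and protease secretion. RAW264.7 cells are widely used as a model because RANKL alone turns them into osteoclast-like cells.

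The upstream sequences of 4 of the genes are shown as examples: Acp5, Ctsk and Tm4sf19 were higher in every Dpep2 hairpin library than in every shNT library, whereas Tnfrsf11a levels overlapped between shDpep2.759 and shNT. Sequences are from RefSeq, build GRCm38.p6, and cover the 250 bases before an annotated gene start, 5′ to 3′ on the gene's strand. Windows were taken for 5 of the 10 genes. None was taken for the others, Nfatc1 among them, which does not show that RefSeq lacks starts for those genes. Capitals mark matches on either strand to 4 motifs: the AP-1 site TGANTCA, the NFAT core GGAAA, the ETS core GGAAG and the MITF/TFE E-box TCANGTG. The Acp5 window lies at chr9:22130599-22130848 on the minus strand, before the most downstream of the Acp5 starts in RefSeq. That of Ctsk lies at chr3:95498960-95499209, that of Tm4sf19 at chr16:32400256-32400505 and that of Tnfrsf11a at chr1:105780473-105780722, all on the plus strand.
Acp5: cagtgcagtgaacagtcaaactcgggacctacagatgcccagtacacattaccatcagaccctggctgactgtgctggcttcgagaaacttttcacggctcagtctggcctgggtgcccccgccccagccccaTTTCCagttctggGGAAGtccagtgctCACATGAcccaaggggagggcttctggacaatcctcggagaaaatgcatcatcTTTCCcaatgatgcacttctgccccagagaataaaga
Ctsk: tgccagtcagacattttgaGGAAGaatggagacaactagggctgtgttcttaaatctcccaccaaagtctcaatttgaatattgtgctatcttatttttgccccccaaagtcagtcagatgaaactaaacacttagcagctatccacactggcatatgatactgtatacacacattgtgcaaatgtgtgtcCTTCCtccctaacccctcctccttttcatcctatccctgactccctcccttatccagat
Tm4sf19: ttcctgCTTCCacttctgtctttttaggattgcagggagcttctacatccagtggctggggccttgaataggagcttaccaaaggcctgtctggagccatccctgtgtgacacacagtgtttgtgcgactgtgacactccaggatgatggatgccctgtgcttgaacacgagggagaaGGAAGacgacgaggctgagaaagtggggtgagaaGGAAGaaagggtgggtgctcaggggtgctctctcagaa
Tnfrsf11a: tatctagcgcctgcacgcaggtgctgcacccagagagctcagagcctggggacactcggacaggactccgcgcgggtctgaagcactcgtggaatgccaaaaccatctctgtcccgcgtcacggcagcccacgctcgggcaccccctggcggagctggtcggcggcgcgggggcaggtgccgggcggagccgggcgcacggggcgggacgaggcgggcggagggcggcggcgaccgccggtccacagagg

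The Acp5 window held 2 NFAT cores, 1 ETS core and 1 MITF/TFE E-box, the E-box beginning 90 bases before the start. The windows of the other Acp5 starts, not shown, held 1 NFAT core each and none of the other motifs. The Ctsk window held 2 ETS cores, that of Tm4sf19 held 3, and none of the 4 motifs was found in the Tnfrsf11a window. The Oscar window, not shown, held 3 NFAT cores, 1 ETS core and 1 E-box, although Oscar RNA was near 0 in every group. Among 32851 such windows of all RefSeq starts, 6.75% held the AP-1 site, 55.6% the NFAT core, 64.1% the ETS core and 12.2% the E-box. No marked matches overlap. A match is a run of letters only, and binding was not measured here.

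Levels are in CPM, a gene's count scaled to a fixed library total after TMM adjustment. The labels could be checked on Dpep2 itself, which measured 22.4 and 17.9 CPM in the shDpep2.968 libraries, 24.9 and 19.5 CPM in the shDpep2.759 libraries and 55.6, 60.3 and 52.1 CPM in the shNT libraries. Every Dpep2 hairpin library lay below every shNT library. Below, hairpin libraries means the 4 with a Dpep2 hairpin. Total counts per library ran from 16548648 to 18401060, so a gene at 3 counts stood at 0.164 to 0.181 CPM. All 8 macrophage markers examined were above 1 CPM, with a summed level of 14712 to 14877 CPM with shDpep2.968, 16658 to 20342 CPM with shDpep2.759 and 14153 to 15605 CPM with shNT. Most of the sum was Lyz2. Adgre1 and Fcgr1 were above every shNT library in all 4 hairpin libraries, whereas Itgam and Cd14 were below every shNT library with shDpep2.968. RANKL (Tnfsf11) and its decoy receptor osteoprotegerin (Tnfrsf11b) had 0 counts in all 7 libraries, which at this depth allows up to 3 counts in each. So did the calcitonin receptor gene Calcr, a marker of mature osteoclasts. Of 5 neutrophil markers Ly6g was at 0 throughout, yet the summed level ran from 34.1 to 50.2 CPM with shDpep2.968, 99.9 to 237 CPM with shDpep2.759 and 17.3 to 33.7 CPM with shNT, nearly all of it S100a8. Of 6 fibroblast markers Postn was at 0 and the sum ran from 1.73 to 2.25 CPM with shDpep2.968, 3.40 to 3.53 CPM with shDpep2.759 and 0.665 to 1.37 CPM with shNT. Nearly all of that sum was Dcn and Lum. For 5 dendritic cell markers, with Cd209a at 0, the sum ran from 1.21 to 1.56 CPM with shDpep2.968 and 4.21 to 4.80 CPM with shDpep2.759. With shNT it ran from 1.64 to 2.18 CPM. Most of the shDpep2.759 sum was Ccr7, at 3.14 and 3.22 CPM. Zbtb46 averaged 0.317 CPM with shDpep2.968, 0.716 CPM with shDpep2.759 and 0.885 CPM with shNT. Sums for 8 osteoblast and stromal markers, 5 epithelial markers and 6 lymphocyte markers stayed at or below 6.59 CPM in every library. The part of these cell type markers in the results below was not tested. Nothing in the labels says that replicates were separate cultures, so errors and p-values measure the spread between these libraries, which may be technical. In bulk RNA, more cells of a kind and more RNA per cell cannot be told apart.

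On the average of both hairpins the largest log2 fold changes over shNT among the 9 were those of Acp5 (1.96), Atp6v0d2 (1.65) and Ctsk (1.31), all genes of resorption. With shDpep2.968 alone Ocstamp (1.67) stood next to Acp5 (1.71). Acp5, Ctsk and Atp6v0d2, together with the fusion-associated gene Tm4sf19, were above all 3 shNT libraries in all 4 hairpin libraries, and the other 5 genes that passed the filter were not. Across all 13329 tested genes, 9.03% were placed that way. None of the 9 lay below all shNT libraries in all 4, as 9.51% of all genes did. Counting each hairpin alone, 7 of the 9 lay above all shNT libraries in both shDpep2.968 libraries (20.7% of all genes) and 4 in both shDpep2.759 libraries (18.2% of all genes). On the average of both hairpins, 4 of the 9 genes passed the whole-table threshold (an adjusted p under 0.05 in edgeR's quasi-likelihood test), all of them higher: Acp5, Ocstamp, Atp6v0d2 and Tm4sf19. Of all tested genes 3.44% were called higher and 7.59% called in either direction. For shDpep2.968 alone 4 of the 9 were called, Acp5, Ocstamp, Atp6v0d2 and Tm4sf19, all higher, against 5.25% of all genes in either direction (2.29% higher, 2.96% lower). For shDpep2.759 alone 3 were called, Acp5, Atp6v0d2 and Tm4sf19, all higher, against 4.73% of all genes in either direction (2.72% higher, 2.0% lower). Because these contrasts were in view when the genes were chosen, nothing is read from those counts.

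**Figure D1:**
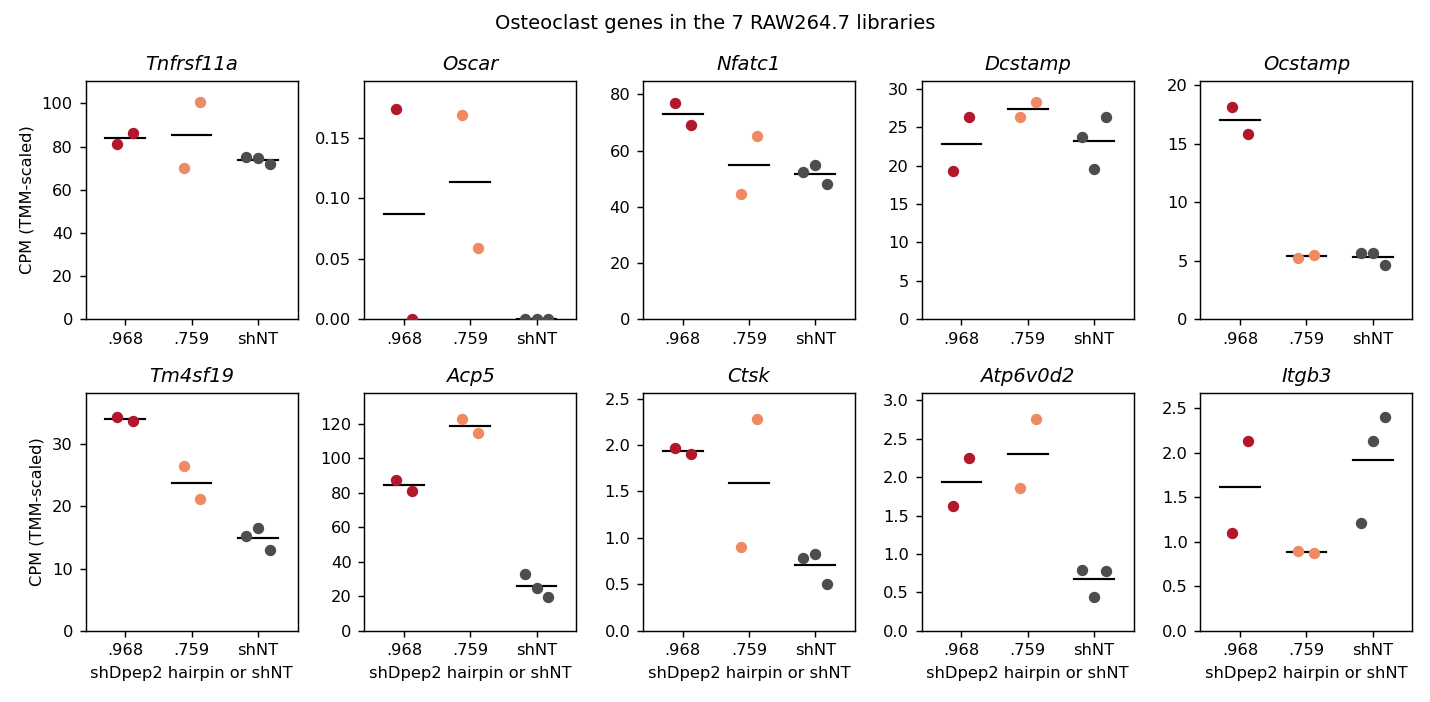
Level of each of the 10 genes in each library, in TMM-scaled CPM on a linear axis from 0, for shDpep2.968 (n = 2), shDpep2.759 (n = 2) and shNT (n = 3). Points are libraries and horizontal lines are group means. Acp5, Ctsk, Atp6v0d2 and Tm4sf19 are separated from shNT with both hairpins, and Ocstamp, Nfatc1 and Tnfrsf11a lie above shNT with shDpep2.968 and Itgb3 below it with shDpep2.759.

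The receptor side showed little separation. Tnfrsf11a encodes RANK, the receptor for RANKL. It measured 81.0 and 86.5 CPM in the shDpep2.968 libraries, 70.1 and 101 CPM in the shDpep2.759 libraries and 75.3, 74.8 and 71.7 CPM in the shNT libraries. Both shDpep2.968 libraries were above the control range, whereas the shDpep2.759 libraries lay on either side of it. The log2 fold change was 0.18 with shDpep2.968 (SE 0.14, 95% interval -0.13 to 0.49) and 0.21 with shDpep2.759 (SE 0.14, 95% interval -0.10 to 0.52).

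Oscar encodes an immunoglobulin-like receptor that costimulates osteoclast precursors through the FcR gamma chain. It had 3 and 0 counts with shDpep2.968 and 3 and 1 counts with shDpep2.759, against 0, 0 and 0 with shNT. All 7 libraries were therefore at or under 3 counts, and no fold change is given. Oscar RNA was close to undetectable in every group at this depth.

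Nfatc1, the transcription factor regarded as the master regulator of osteoclast differentiation, measured 76.8 and 69.0 CPM in the shDpep2.968 libraries, 44.7 and 65.3 CPM in the shDpep2.759 libraries and 52.2, 54.7 and 48.2 CPM in the shNT libraries. Both shDpep2.968 libraries were above the controls, and the shDpep2.759 libraries bracketed them. The log2 fold change was 0.50 with shDpep2.968 (SE 0.15, 95% interval 0.17 to 0.83) and 0.09 with shDpep2.759 (SE 0.15, 95% interval -0.25 to 0.42). Nfatc1 was not among the genes called on the average of both hairpins, but was called without shDpep2.759 replicate 1. Its shDpep2.968 value, not called, was called with DESeq2, with no low-count filter, with the GC and length correction and without either shDpep2.759 library.

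Among the fusion genes, the Dcstamp groups overlapped, the Tm4sf19 groups did not, and Ocstamp was separated with shDpep2.968. Dcstamp encodes DC-STAMP, which osteoclast precursors need to fuse. It measured 19.4 and 26.4 CPM in the shDpep2.968 libraries, 26.4 and 28.3 CPM in the shDpep2.759 libraries and 23.7, 19.6 and 26.4 CPM in the shNT libraries. These ranges overlapped, with a log2 fold change of -0.020 for shDpep2.968 (95% interval -0.39 to 0.35) and 0.24 for shDpep2.759 (95% interval -0.13 to 0.60).

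Ocstamp encodes OC-STAMP, a DC-STAMP-like protein that also acts in precursor fusion. It measured 18.2 and 15.8 CPM in the shDpep2.968 libraries, 5.22 and 5.51 CPM in the shDpep2.759 libraries and 5.68, 5.64 and 4.64 CPM in the shNT libraries. Only the shDpep2.968 libraries were separated from the controls, and the shDpep2.759 libraries lay inside the control range. The log2 fold change was 1.67 with shDpep2.968 (SE 0.17, 95% interval 1.30 to 2.04), which is 3.19-fold, and 0.012 with shDpep2.759 (SE 0.19, 95% interval -0.39 to 0.41). The averaged value was 0.84, between those of the hairpins, and its call was lost with all hairpin libraries fitted as 1 group.

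Tm4sf19, a tetraspanin-like membrane protein gene linked to osteoclast multinucleation, measured 34.4 and 33.8 CPM in the shDpep2.968 libraries, 26.5 and 21.1 CPM in the shDpep2.759 libraries and 15.3, 16.5 and 13.1 CPM in the shNT libraries. The 3 groups did not overlap, with shDpep2.968 highest. It was 2.28-fold higher with shDpep2.968 (log2 fold change 1.19, SE 0.15) and 1.59-fold higher with shDpep2.759 (log2 fold change 0.67, SE 0.15). On leaving out replicate 1 of shDpep2.759 or replicate 3 of shNT, the shDpep2.759 call was lost.

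Acp5 encodes tartrate-resistant acid phosphatase (TRAP), the enzyme stained to identify osteoclasts. It measured 87.4 and 81.1 CPM in the shDpep2.968 libraries, 123 and 115 CPM in the shDpep2.759 libraries and 33.0, 25.0 and 19.4 CPM in the shNT libraries. Here too the 3 groups did not overlap, but shDpep2.759 was highest. It was 3.27-fold higher with shDpep2.968 (log2 fold change 1.71, SE 0.17, 95% interval 1.33 to 2.09) and 4.6-fold higher with shDpep2.759 (log2 fold change 2.20, SE 0.17, 95% interval 1.82 to 2.58). S100a8, which made up nearly all of the summed neutrophil markers, had the same order of groups. S100a9, below 1 CPM in every library, did not. It averaged 0.288 CPM with shDpep2.968, 0.255 CPM with shDpep2.759 and 0.331 CPM with shNT. The part of these markers in the Acp5 values was not tested. An antisense gene overlapping Acp5, 6530413G14Rik, had 0 to 6 counts per library. The strand setting of the counting is not given in the sources used here, so reads of the pair cannot be told apart. Another antisense gene overlaps Nfatc1 in GENCODE M21 and was not analysed here.

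Ctsk encodes cathepsin K, the main collagen-degrading protease of osteoclasts. It had 34 and 33 counts (1.97 and 1.90 CPM) with shDpep2.968 and 16 and 39 counts (0.898 and 2.28 CPM) with shDpep2.759, against 13, 15 and 9 counts (0.786, 0.822 and 0.503 CPM) with shNT. Every hairpin library was above every control, though shDpep2.759 replicate 1 stood only slightly above the highest of them. It was 2.73-fold higher with shDpep2.968 (log2 fold change 1.45, SE 0.43) and 2.24-fold higher with shDpep2.759 (log2 fold change 1.17, SE 0.44). The shDpep2.759 value was 1.69 on the log2 scale without replicate 1 of that hairpin and 0.34 without replicate 2. The averaged log2 fold change was 1.31 (SE 0.38, 95% interval 0.49 to 2.13), and it did not pass the whole-table threshold. It passed with no low-count filter, with a GC and length correction and without shDpep2.759 replicate 1. Neither single-hairpin contrast passed in the main fit. That of shDpep2.968 passed under 4 of the alternatives tried and that of shDpep2.759 under 1.

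Atp6v0d2 encodes the d2 subunit of the vacuolar proton pump (V-ATPase), which acidifies the resorption pit and also takes part in fusion. It had 28 and 39 counts (1.62 and 2.25 CPM) with shDpep2.968 and 33 and 47 counts (1.85 and 2.75 CPM) with shDpep2.759, against 13, 8 and 14 counts (0.786, 0.438 and 0.782 CPM) with shNT. The groups of both hairpins lay above the controls and overlapped each other. It was 2.88-fold higher with shDpep2.968 (log2 fold change 1.53, SE 0.38) and 3.43-fold higher with shDpep2.759 (log2 fold change 1.78, SE 0.38). The averaged call was lost without shNT replicate 2. Both single-hairpin calls were lost without shNT replicate 2 or 3, that of shDpep2.968 also without either of its own libraries, and that of shDpep2.759 also without its replicate 2.

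Itgb3 encodes integrin beta 3, which pairs with integrin alpha v in the osteoclast's attachment to bone. It had 19 and 37 counts (1.10 and 2.13 CPM) with shDpep2.968 and 16 and 15 counts (0.898 and 0.879 CPM) with shDpep2.759, against 20, 39 and 43 counts (1.21, 2.14 and 2.40 CPM) with shNT. The shDpep2.759 libraries were below every control, and the shDpep2.968 libraries overlapped them. The log2 fold change was -0.25 with shDpep2.968 (SE 0.39, 95% interval -1.09 to 0.59) and -1.11 with shDpep2.759 (SE 0.42, 95% interval -2.02 to -0.20), from counts low enough to leave wide intervals.

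**Figure D2:**
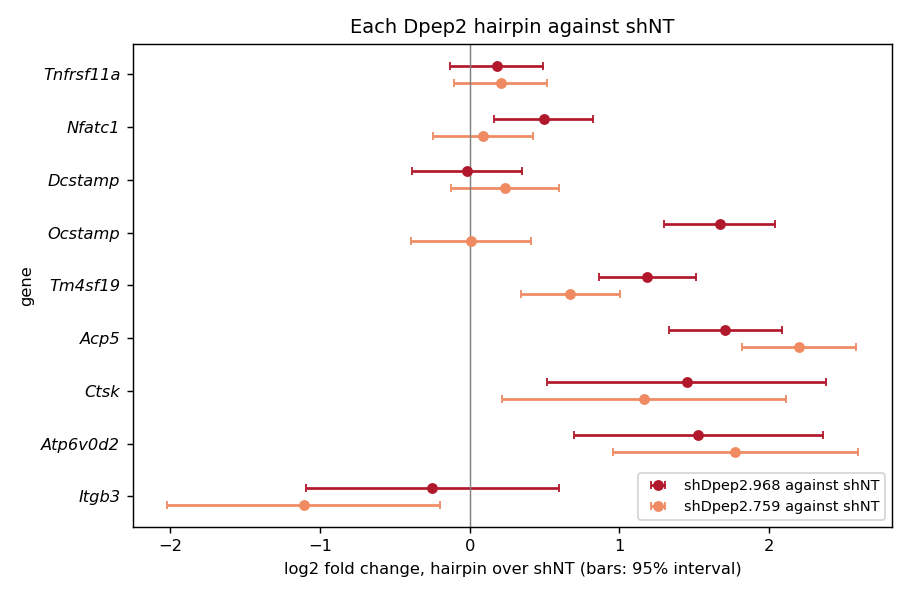
Log2 fold change of each hairpin over shNT for the 9 genes that passed the low-count filter, with 95% intervals from the edgeR fit over all 7 libraries. Both contrasts share the 3 shNT libraries. Acp5 lies at 1.71 and 2.20 for shDpep2.968 and shDpep2.759, whereas Ocstamp lies at 1.67 and 0.012.

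Per length, Acp5 had the highest mean level of the 10 in all 3 groups. Levels were put on the TPM scale, which is like CPM but per transcript length, with the longest protein-coding GENCODE M21 transcript of each gene. With shDpep2.968 the order was Acp5 at 131 ± 9.8 TPM, Tm4sf19 at 60.9 ± 2.2 TPM, Tnfrsf11a at 37.4 ± 0.92 TPM, Nfatc1 at 34.2 ± 3.3 TPM, Dcstamp at 25.7 ± 5.0 TPM and Ocstamp at 10.4 ± 1.3 TPM (SD, n = 2), and none of these neighbours overlapped. With shDpep2.759 Acp5 stood at 173 ± 8.2 TPM (SD, n = 2), clear of the next gene, while Tm4sf19, Tnfrsf11a, Dcstamp and Nfatc1 followed at 39.8, 36.3, 29.0 and 24.5 TPM with each neighbouring pair overlapping. With shNT Acp5 stood at 38.9 ± 10.2 TPM and overlapped Tnfrsf11a at 32.1 ± 0.56 TPM, and Tm4sf19, Dcstamp and Nfatc1 lay between 23.5 and 25.9 TPM and overlapped in turn (SD, n = 3). Ctsk, Atp6v0d2, Itgb3 and Oscar averaged at most 2.87 TPM in every group, and Ocstamp averaged 3.11 TPM with shDpep2.759 and 3.17 TPM with shNT.

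The next comparison asked where the hairpins differed from each other, using the same fit with p-values adjusted over all 13329 genes. The CPM values and hairpin-to-shNT differences known when the genes were chosen already hold this difference. Its p-values are therefore a description, and no support is drawn from them. Of the 9 genes, 1 passed: Ocstamp, which was 3.16-fold higher with shDpep2.968 than with shDpep2.759 (log2 fold change 1.66, SE 0.19, 95% interval 1.24 to 2.08, edgeR adjusted p = 0.00394). Among all tested genes 0.84% were called, 0.255% higher and 0.585% lower. The Ocstamp call held whichever 1 of the 7 libraries was left out, with edgeR adjusted p from 0.00103 to 0.0431.

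Without regard to a test, 4 of the 9 were higher in both shDpep2.968 libraries than in both shDpep2.759 libraries (Ocstamp, Tm4sf19, Nfatc1 and Itgb3), as 20.4% of all genes were, and Acp5 was lower in both, as 22.5% were. Apart from Ocstamp, none of the 9 passed. Tm4sf19 had a log2 difference of 0.51 (95% interval 0.16 to 0.87, edgeR adjusted p = 0.176) and Nfatc1 of 0.41 (95% interval 0.04 to 0.77, edgeR adjusted p = 0.283). Acp5 had one of -0.49 (95% interval -0.90 to -0.08, edgeR adjusted p = 0.253). For Itgb3 it was 0.86 (95% interval -0.14 to 1.85, edgeR adjusted p = 0.404). The intervals of Tnfrsf11a (-0.37 to 0.32), Dcstamp (-0.66 to 0.14), Ctsk (-0.68 to 1.25) and Atp6v0d2 (-1.08 to 0.58) included 0. Those of Ctsk, Atp6v0d2 and Itgb3 are wide enough to contain a difference of 1 in size on the log2 scale. Acp5 passed with no low-count filter, Tm4sf19 with the GC and length correction and Nfatc1 without shDpep2.759 replicate 2. Dpep2 itself differed between the hairpins by -0.14 on that scale (95% interval -0.51 to 0.23).

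The shDpep2.759 replicates differed more from each other than other replicates of a group did. Their counts over all genes gave a chi-square of 44.9 per degree of freedom, against 15.5 to 26.4 for the other pairs of libraries within a group. Of the 9 tested genes, Tnfrsf11a, Nfatc1, Ctsk, Atp6v0d2, Dcstamp and Ocstamp were lower in replicate 1 of that hairpin than in replicate 2, and Acp5, Tm4sf19 and Itgb3 were higher. The log2 fold change of Nfatc1 with shDpep2.759 was 0.33 without replicate 1 of that hairpin and -0.22 without replicate 2.

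**Figure D3:**
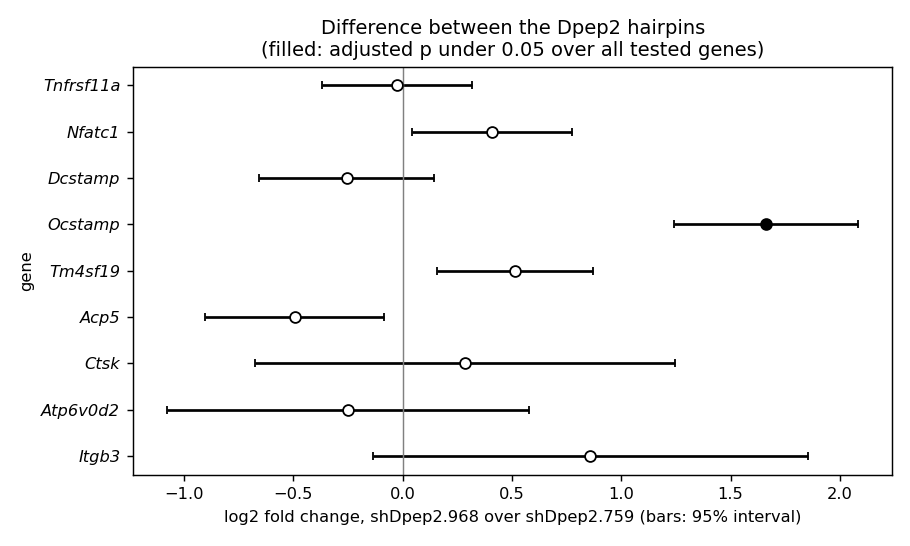
Log2 fold change of shDpep2.968 over shDpep2.759 for the same 9 genes, with 95% intervals. The filled point, Ocstamp at 1.66, passed an adjusted p of 0.05 over all tested genes, and the open points did not.

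Osteoclast genes outside the 10 were taken from 10 lists of 129 genes in all, of which 119 passed the low-count filter. The lists were written with earlier results of these data known. Their counts, p-values and calls held or lost under other settings are therefore a description. On the average of both hairpins 10 of the 119 rose and 4 fell (edgeR adjusted p under 0.05), beside 3.44% called higher and 4.15% called lower among all tested genes. Their median log2 fold change was 0.075, against 0.0025 for all tested genes. At an unadjusted p under 0.05, 20.2% of the 119 were higher and 7.56% lower, against 10.4% and 12.5% of all tested genes. With a GC and length correction the numbers were 32 higher and 8 lower. Among all 13329 tested genes that correction called 1162 higher and 1117 lower, against 459 and 553 in the main fit. With all hairpin libraries as 1 group Syk, Fos, Prdm1, Tfeb and Ckb lost their calls. Some list genes not called on average were called on 1 hairpin alone. With shDpep2.968 these were Trem2, higher, and Rab3d and Atp6v0a1, lower. With shDpep2.759 they were Fcer1g and Batf, both higher. Among the genes called on average, Syk, Fos, Prdm1, Id3 and Tcirg1 were called with shDpep2.759 and not with shDpep2.968. Tfeb and Gsn were called with shDpep2.968 and not with shDpep2.759, and Ckb with neither.

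Ligands and early signalling genes held no call. Of 6 ligand, cytokine and receptor genes 4 were tested. On the average of both hairpins none passed with edgeR, DESeq2 or limma-voom, nor at an unadjusted p under 0.05 with any of them. The macrophage colony-stimulating factor receptor Csf1r averaged 1325 ± 103 CPM with shDpep2.968 and 1191 ± 132 CPM with shDpep2.759 (SD, n = 2 each), against 1138 ± 57 CPM with shNT (SD, n = 3). Its ligand gene Csf1 averaged 2.37, 1.55 and 1.39 CPM in the same groups. With shDpep2.968 alone Csf1 was 1.70-fold higher (edgeR unadjusted p = 0.0284) and was not called. On that average the 15 adaptors and kinases of RANK signalling also had 0 calls with all 3 tools and 0 at an unadjusted p under 0.05. On 1 hairpin alone none was called, and Map3k14 (shDpep2.968) and Cyld (shDpep2.759) were lower at an unadjusted p under 0.05 in edgeR. The 2 most abundant of the 15, the autophagy and TRAF6-binding scaffold Sqstm1 and the p38 kinase Mapk14, had averaged log2 fold changes of 0.21 (SE 0.12) and 0.0031 (SE 0.099).

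Costimulation genes that act through ITAM motifs had 2 of 9 higher (22.2%, against 3.44% of all tested genes). At an unadjusted p under 0.05, 4 were higher (44.4%, against 10.4% of all tested genes) and none lower (12.5% of all tested genes). DESeq2 called 3 higher, with Fcer1g added. Blnk, an adaptor downstream of Syk and Btk, measured 22.5 and 29.7 CPM in the shDpep2.968 libraries, 24.0 and 21.4 CPM in the shDpep2.759 libraries and 15.2, 12.4 and 13.5 CPM in the shNT libraries. It rose 1.78-fold (log2 fold change 0.83, SE 0.14, edgeR adjusted p = 0.00326). The kinase gene Syk rose 1.33-fold (edgeR adjusted p = 0.0262), a call lost without replicate 2 of shDpep2.968 or without replicate 2 or 3 of shNT. By hairpin Syk rose 1.17-fold with shDpep2.968 and 1.51-fold with shDpep2.759.

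Osteoclast transcription factors had 2 higher and 1 lower of 17. Fos, the AP-1 subunit without which osteoclasts do not form, rose 1.32-fold (log2 fold change 0.40, SE 0.10, edgeR adjusted p = 0.0281). By hairpin Fos rose 1.21-fold with shDpep2.968 and 1.45-fold with shDpep2.759. Prdm1, which encodes the repressor BLIMP1, rose 2.18-fold (SE 0.31 on the log2 scale, edgeR adjusted p = 0.042), with 1.16 and 1.79 CPM in the shDpep2.968 libraries, 2.47 and 2.28 CPM in the shDpep2.759 libraries and 0.967, 0.931 and 0.671 CPM in the shNT libraries. Tfeb, a lysosomal gene regulator, fell by 0.60 on the log2 scale (SE 0.14, edgeR adjusted p = 0.0195). Each of these calls could be lost by leaving out 1 library. For Tfeb this was shDpep2.968 replicate 1 or shNT replicate 2 or 3, and for Fos any library of shDpep2.968 or shNT. Of the 7 leave-one-out fits Prdm1 was called in 1, that without shDpep2.968 replicate 1, and DESeq2 did not call it.

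Genes known to restrain osteoclast formation had 3 higher and none lower of 12, and all 3 calls held whichever library was left out. At an unadjusted p under 0.05, 5 were higher and 1 lower (41.7% and 8.33%, against 10.4% and 12.5% of all tested genes). The lower one was Irf8, with a log2 fold change of -0.30 (SE 0.11). Id2, a helix-loop-helix inhibitor, measured 16.3 and 18.6 CPM in the shDpep2.968 libraries, 12.9 and 18.6 CPM in the shDpep2.759 libraries and 7.43, 5.15 and 4.47 CPM in the shNT libraries (2.92-fold, edgeR adjusted p = 0.000658). Its relative Id3 rose 1.61-fold (edgeR adjusted p = 0.00238), 1.34-fold with shDpep2.968 and 1.95-fold with shDpep2.759. Tnfaip3, which encodes the NF-kB inhibitor A20, measured 31.9 and 34.0 CPM in the shDpep2.968 libraries, 56.0 and 60.4 CPM in the shDpep2.759 libraries and 20.001, 20.8 and 21.3 CPM in the shNT libraries (2.11-fold, edgeR adjusted p = 0.000137).

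Macrophage fusion genes other than those already described had 0 of 8 called by edgeR, with 1 higher and 2 lower at an unadjusted p under 0.05. DESeq2 called 1 of them, Sirpa, higher, and limma-voom called 0. The 2 most abundant, the sheddase Adam8 and the hyaluronan receptor Cd44, had log2 fold changes of -0.094 (SE 0.11) and 0.035 (SE 0.13).

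In the resorption and ion transport list 1 of 13 rose. That was the gelatinase Mmp9, which measured 63.5 and 65.9 CPM in the shDpep2.968 libraries, 71.5 and 81.2 CPM in the shDpep2.759 libraries and 44.4, 39.2 and 40.1 CPM in the shNT libraries (1.71-fold, edgeR adjusted p = 0.000932). Of 19 tested V-ATPase subunits 1 rose, Tcirg1, which encodes the a3 subunit of the osteoclast proton pump. It measured 540 and 450 CPM in the shDpep2.968 libraries, 557 and 562 CPM in the shDpep2.759 libraries and 366, 402 and 355 CPM in the shNT libraries (1.40-fold, edgeR adjusted p = 0.0173). Without shDpep2.968 replicate 1 or any one shNT library the Tcirg1 call was lost. Across the V-ATPase list the median log2 fold change was 0.22, and 7 subunits were higher at an unadjusted p under 0.05 (36.8%, against 10.4% of all tested genes) and none lower (12.5% of all tested genes). DESeq2 called 3 subunits higher, Tcirg1, Atp6v0b and Atp6v1b2. In the resorption list it called Mmp9 and Ctsb higher and Rab3d lower. With shDpep2.968 alone edgeR called the subunit gene Atp6v0a1 lower (log2 fold change -0.47, SE 0.12). The ubiquitous d subunit gene Atp6v0d1, named after its values were seen, averaged 235 TPM with shDpep2.968, 274 TPM with shDpep2.759 and 219 TPM with shNT, against 1.71, 1.94 and 0.577 TPM for Atp6v0d2 in the same groups.

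Integrin and podosome genes had 1 higher and 2 lower of 18. Src, the kinase that organises the osteoclast's ruffled border, measured 12.8 and 12.2 CPM in the shDpep2.968 libraries, 10.2 and 10.95 CPM in the shDpep2.759 libraries and 5.14, 4.82 and 5.25 CPM in the shNT libraries. It rose 2.27-fold (log2 fold change 1.18, SE 0.14, edgeR adjusted p = 0.000504), and the call held whichever of the 7 libraries was left out. Itgb5, a beta integrin that pairs with alpha v, fell by 0.57 on the log2 scale (SE 0.12, edgeR adjusted p = 0.0101), and the actin-severing protein gene Gsn fell by 0.53 (SE 0.11, edgeR adjusted p = 0.0123). Both calls were lost without shNT replicate 2 or 3, and that of Gsn also without shDpep2.968 replicate 2. Among the other markers 1 of 4 fell: the creatine kinase gene Ckb, by 0.43 on the log2 scale (SE 0.12, edgeR adjusted p = 0.0481), a call that held without shDpep2.759 replicate 1 or shNT replicate 1 but was lost on leaving out any of the other 5 libraries.

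**Figure D4:**
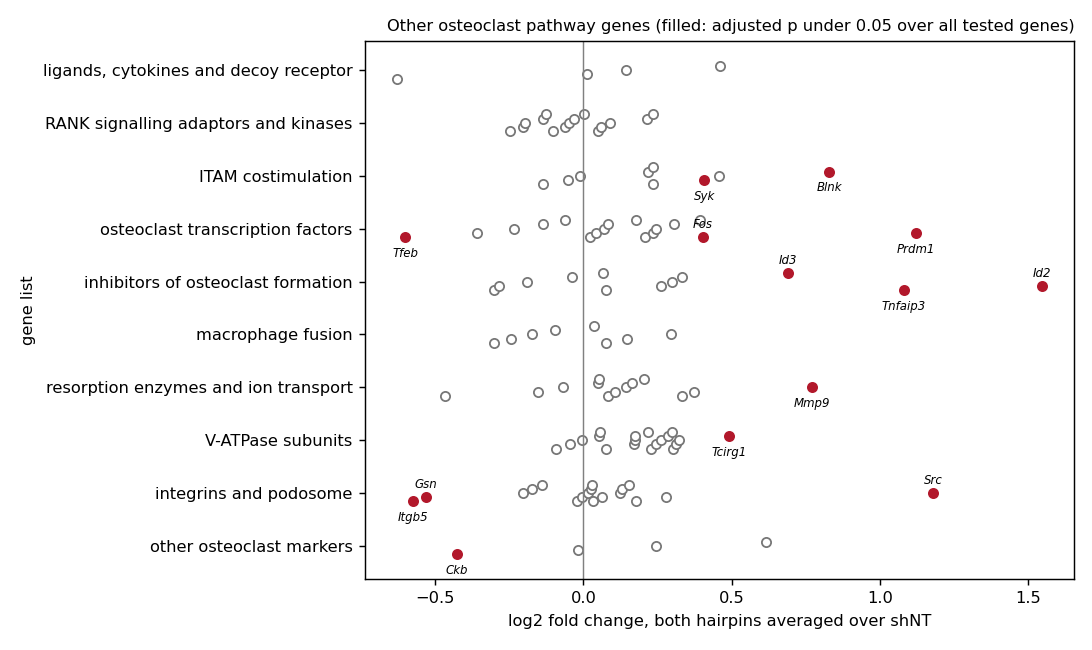
Averaged log2 fold change of both hairpins over shNT for the 119 tested genes of the 10 lists, 1 row per list. Filled, labelled points passed an adjusted p of 0.05 over all tested genes (10 higher and 4 lower), and open points did not; vertical position within a row has no meaning.

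Between the hairpins, 2 of the 119 list genes were called, both lower with shDpep2.968, and 0 higher (edgeR). At an unadjusted p under 0.05, 6 were higher and 23 lower (5.04% and 19.3%), against 6.73% and 8.29% of all tested genes. DESeq2 called 1 higher and 8 lower, and limma-voom 0 higher and 2 lower. Tnfaip3 was lower with shDpep2.968 by a log2 fold change of -0.82 (SE 0.14, edgeR adjusted p = 0.0173), and the V-ATPase subunit gene Atp6v0a1 by -0.76 (SE 0.13, edgeR adjusted p = 0.0209). Atp6v0a1 measured 78.9 and 74.4 CPM in the shDpep2.968 libraries, 126 and 133 CPM in the shDpep2.759 libraries and 101, 118 and 99.4 CPM in the shNT libraries. Both calls were lost without either shDpep2.968 library or shNT replicate 3.

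The genes most like the mean pattern of the 9 were found by Pearson r of log2 CPM over the 7 libraries among 9504 named genes of at least 5 CPM. They were B4galt1 (r = 0.992), Smad7 (r = 0.987), Chd7 (r = 0.987), Cacul1 (r = 0.986), Tlr2 (r = 0.985) and Knop1 (r = 0.984). These values are the highest of many and rest on 7 points in 3 groups that share their libraries and depth. Smad7, an inhibitor of TGF-beta signalling, averaged 6.84 ± 0.43 CPM with shDpep2.968 and 5.47 ± 1.38 CPM with shDpep2.759 (SD, n = 2 each), against 3.48 ± 0.29 CPM with shNT (SD, n = 3). Tlr2, the receptor for bacterial lipopeptides, averaged 129 ± 13 CPM with shDpep2.968 and 107 ± 17 CPM with shDpep2.759 (SD, n = 2 each), against 88.5 ± 3.8 CPM with shNT (SD, n = 3).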

How the data were processed

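The authors deposited whole-number counts per gene symbol for 7 libraries. Per the labels' protocols, total RNA was made into stranded total RNA libraries read as paired ends. Per the submitters' processing notes, Trim Galore and Salmon were used, with the build hg38, which is human whereas the symbols are mouse. The sources used here give no versions, annotation, strand setting or rounding. If counts are Salmon estimates, reads shared between similar genes were divided by a model.

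Tests on the counts used edgeR 4.0.16 in R 4.3.3, with limma 3.58.1 and DESeq2 1.42.0 as alternatives: filterByExpr (13329 genes), TMM, 1 mean per group over all 7 libraries, robust quasi-likelihood tests, Benjamini-Hochberg adjustment over all genes and a threshold of 0.05. CPM uses TMM-scaled sizes of the filtered libraries. TPM uses GENCODE M21 lengths, available for 97.1% of tested genes. Floors of 3 counts cover counting error only. No pair of replicates agreed within sampling noise. The fit was tested on simulated data.

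The 10 genes and the lists were chosen with earlier results of these data known. All 10 are named, with Dpep2, up to 4 called genes per list by smallest p (or the 2 most abundant where none was called), up to 4 called between hairpins, and the 6 most similar in pattern. The alternatives tried were DESeq2 size factors, unscaled library sizes, no or another low-count filter, limma-voom, DESeq2, a replicate block, leaving out each library, hairpins as 1 group, compared groups only and, chosen after seeing the data, a GC and length correction.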

Additional observations from a re-analysis of the deposited data

Results flagged for a closer look

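Ocstamp was marked because its response differed between the 2 Dpep2 hairpins. The gene was chosen with its levels already known, so the p-value given here is a description. The log2 fold change of shDpep2.968 over shDpep2.759 was 1.66 (SE 0.19, edgeR adjusted p = 0.00394 over 13329 genes), with 18.2 and 15.8 CPM in the shDpep2.968 libraries and 5.22 and 5.51 CPM in the shDpep2.759 libraries. The shDpep2.968 libraries held 22.4 and 17.9 CPM of Dpep2 itself, and the shDpep2.759 libraries 24.9 and 19.5 CPM. Which sequence each hairpin targets is not given in the sources used here, and other targets of either hairpin were not tested.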

How the results depend on the processing

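Deviations from the group mean of same-numbered libraries correlated at 0.098 between the hairpins and at -0.29 to -0.21 between a hairpin and shNT. With 2 libraries in a hairpin group, their deviations mirror each other, so swapping their numbers reverses the sign. Differently numbered libraries were not compared. These values cannot decide whether libraries of different groups were paired or shared a batch. A replicate block gave 404 genes called on the average of both hairpins, against 1012 without it. It gave 6 list genes higher and 0 lower, against 10 and 4. Genes tested numbered 13329 in the main fit and with the block, and 25733 with no low-count filter. They numbered 12958 with the hairpins as 1 group and 13220 to 13913 without 1 library, so the counts below have unlike totals. Under the block Syk, Fos, Prdm1, Tcirg1, Tfeb, Itgb5, Gsn and Ckb lost their averaged calls, as did Ocstamp, and calls against shNT were lost for Atp6v0d2 with shDpep2.968 and Tm4sf19 with shDpep2.759. The count of 1012 was 1590 with no low-count filter, 551 with the hairpins as 1 group, 2279 with the GC and length correction and 321 to 1468 without 1 library. It was 321 without shNT replicate 3, 356 without shNT replicate 2 and 492 without shDpep2.968 replicate 2. The 112 genes called between the hairpins became 669 with no filter, 376 with DESeq2, 61 with the compared groups only, 615 with the GC and length correction and 6 to 1070 without 1 library. They were 13 and 6 without shDpep2.968 replicate 1 and 2, 33 and 1070 without shDpep2.759 replicate 1 and 2, and 71 and 28 without shNT replicate 2 and 3. List genes higher on average were 32 with the correction and 6 to 12 without 1 library, and lower ones 2 with the hairpins as 1 group, 8 with the correction and 0 to 6 without 1 library. Between hairpins, list genes higher were 1 with no filter, 1 with DESeq2, 2 with the correction and 0 to 2 without 1 library. Lower ones were 11, 8, 7 and 0 to 13 in the same order, and 1 with the compared groups only. Without shNT replicate 2 or 3, 6 list genes were higher and 0 lower on average, and 2 were lower without either shDpep2.968 library. Between hairpins 0 were lower without either shDpep2.968 library or shNT replicate 3, and 13 without shDpep2.759 replicate 2. Of the 10 genes described, 3 were called on average without shNT replicate 2, where 356 of 13220 tested genes were called. Between the hairpins 2 of them were called with no filter (Acp5 added), where 669 of 25733 tested genes were called. With the correction 2 were called (Tm4sf19 added), where 615 of 13329 tested genes were.  The causes of these shifts were not tested. Across genes, which are not independent replicates, Spearman's rho of the averaged log2 fold change with GC content was -0.257.

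Directions turned only for values that passed in neither fit. Without 1 library, the log2 fold change of shDpep2.968 over shNT ran from -0.26 to 0.19 for Dcstamp (0.072 with the replicate block) and from -0.80 to 0.16 for Itgb3. That of shDpep2.759 over shNT ran from -0.092 to 0.060 for Ocstamp (-0.015 with library size alone, -0.078 with the replicate block), -0.22 to 0.33 for Nfatc1 and -0.084 to 0.44 for Tnfrsf11a. The averaged value for Dcstamp ran from -0.014 to 0.21. Between the hairpins the range was -0.51 to 0.069 for Atp6v0d2, -0.24 to 1.11 for Ctsk, -0.30 to 0.048 for Dpep2 and -0.26 to 0.27 for Tnfrsf11a. At under 50 counts per library, Ctsk, Atp6v0d2, Itgb3 and Oscar are limited by depth.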
